A study of Mus musculus with 5 samples.

Results

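Small intestinal organoids carrying 1 disrupted copy of Lkb1 (genotype Lkb1 +/-) were set beside wild-type (WT) small intestinal organoids, cell by cell and over all genes. Organoids are miniature gut epithelia grown from stem cells in a gel. The 571 cells compared, 291 of the Lkb1 +/- library and 280 of the WT library, were the wells of each plate with at least 1000 unique molecular identifiers (UMIs, each standing for 1 captured transcript) and no more than 2% of them from the long noncoding RNA Kcnq1ot1. They are 571 of the 1552 cells that pass the same filter in the 5 libraries of the series. The other 3 libraries, used here only for levels set beside the pair, were 2 of Lkb1 -/- small intestinal organoids, named Bud and Cys after unexplained marks in their titles, and fetal intestinal organoids of wild-type genotype. All were grown in ENR medium (Egf, Noggin and R-spondin), dissociated with TrypLE, sorted 1 cell to a well into 384-well plates and sequenced from the 3′ end of the transcripts. The labels do not give the edited part of Lkb1, the mouse or clone behind each line, or its time in culture. Each genotype was 1 library, so no test was possible. The intervals below are 95% intervals for counting error only, and differences between lines, plates and genotypes cannot be told apart.

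LKB1, the product of Stk11, is a protein kinase that works in a complex with the pseudokinase STRAD and the scaffold MO25 and switches on AMPK and a family of related kinases. Among these, the salt-inducible kinases hold the CRTC coactivators out of the nucleus, and AMPK restrains growth through mTORC1. In people, an inherited mutation in 1 copy of the gene causes Peutz-Jeghers syndrome, with polyps of the gut. In the intestinal crypt, stem cells marked by Lgr5 divide and give rise to absorptive enterocytes and to the secretory Paneth, goblet, enteroendocrine and tuft cells.

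The libraries were alike in depth. Kept cells had a median of 13347 UMIs and 3956 genes in Lkb1 +/- and of 13708.5 UMIs and 4165.5 genes in WT, and 4221440 and 3962280 UMIs in all. The cap on Kcnq1ot1 removed 60 of 351 wells (17.1%) from Lkb1 +/- and 22 of 302 (7.28%) from WT. Each UMI was read 3.23 times on average in Lkb1 +/- and 2.56 times in WT. Epithelial markers were present in both: Epcam, a cell adhesion protein of epithelia, stood at 762 CPM (UMIs scaled to a library total of 1000000) in Lkb1 +/- and 731 CPM in WT. The immune, mesenchymal and endothelial lists summed to 7.34, 1.90 and 2.84 CPM in Lkb1 +/- and to 8.08, 1.77 and 1.01 CPM in WT.

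Stk11 itself was at 14.2 CPM (interval 10.8 to 18.3) in Lkb1 +/- and 20.4 CPM (16.2 to 25.4) in WT, a ratio of 0.695 (0.489 to 0.983) on 60 and 81 UMIs. A gene was called higher or lower when its ratio of CPM reached 1.5-fold with an interval that left out 1, and Stk11 did not reach that fold. A tag at the 3′ end need not fall in the edited part, so this level does not check the genotype. Bud and Cys, the Lkb1 -/- libraries, had Stk11 at 12 and 9.13 CPM.

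In the list of LKB1, its partners and its substrate kinases, 0 of 19 measured genes were higher and 1 was lower, with a median log2 ratio of 0.04. Here and below a gene is measured with at least 10 UMIs over both libraries, and log2 ratios are Lkb1 +/- over WT after 10 CPM is added to each. The member past the fold was Strada, the pseudokinase partner, at 10.2 CPM against 17.9 CPM (ratio 0.568, interval 0.380 to 0.842). Its log2 ratio was -0.47, and 0.0038 in cells thinned to 3000 UMIs. Prkaa1, a catalytic subunit of AMPK, was near equal at 33.4 and 31 CPM. Cab39, which encodes the scaffold MO25, was at 113 CPM against 82 CPM, a ratio of 1.37 (1.19 to 1.59). Cab39 lies on chromosome 1, where the median ratio was 1.28 (below). It was at 92 CPM in Lkb1 +/- cells with a low share of UMIs from that chromosome and 129 CPM in those with a high share. Sik1 was too low to place, with 8 UMIs against 15.

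Over all genes, 910 of 11460 measured genes were higher in Lkb1 +/- (7.94%) and 989 were lower (8.63%), 16.6% in either direction, and the median log2 ratio was -0.02. Differences of 5-fold or more were seen in 109 higher and 124 lower genes. The plot of levels in both libraries shows most genes near the diagonal, with Ifitm3, Igf2bp3 and Trim44 far below it and Ghrl, Erdr1 and Itln1 far above.

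**Figure D1:**
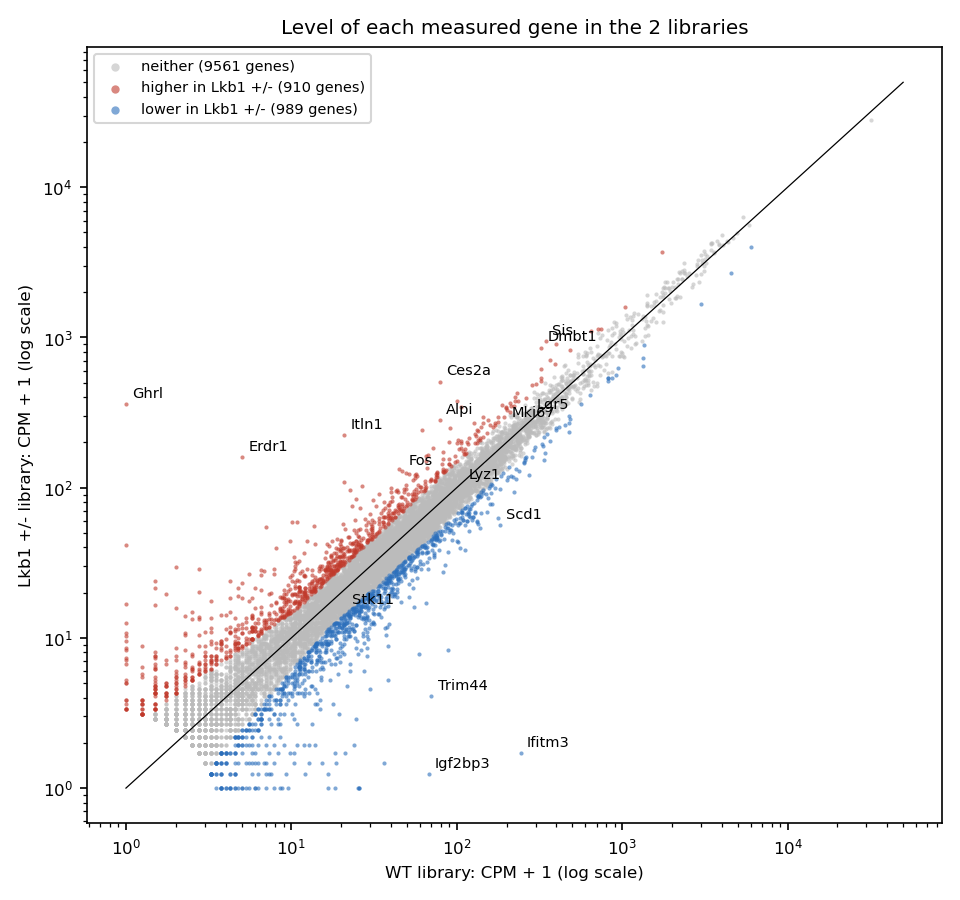
CPM plus 1 of each of 11460 measured genes in the WT library (x axis, log scale) and in the Lkb1 +/- library (y axis, log scale). Red points are the 910 genes called higher in Lkb1 +/-, blue points the 989 called lower, grey points neither, and the line marks equal levels. Ifitm3 lies near the floor on the y axis at 243 CPM in WT, while Lgr5 and Mki67 lie close to the line.

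The gene with the lowest log2 ratio of those seen in at least 10% of cells was Ifitm3, an interferon-induced membrane protein that blocks entry of viruses. It had 963 UMIs in WT (243 CPM, interval 228 to 259) and 3 UMIs in Lkb1 +/- (0.711 CPM, 0.147 to 2.08), a ratio of 0.00292 (0.000602 to 0.00857). UMIs of it were found in 71.8% of WT cells and 1.03% of Lkb1 +/- cells. Its neighbour in the family, Ifitm2, was at 679 CPM in Lkb1 +/- and 539 CPM in WT. Outside this pair, Ifitm3 was at 0.753 CPM in Bud, 0.812 CPM in Cys and 1027 CPM in the fetal library, so that WT and fetal were high and the 3 Lkb1-edited libraries low.

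Igf2bp3, an RNA-binding protein best known from fetal tissue, was at 66.6 CPM in WT with UMIs in 47.1% of cells and had 1 UMI in Lkb1 +/- (ratio 0.00356, interval 8.97e-05 to 0.0200). Bud and Cys had it at 1.51 and 0.406 CPM and the fetal library at 6.66 CPM, so that WT stood above all others. Trim44 (69.2 to 3.08 CPM) and Vav3 (58 to 6.87 CPM), a guanine nucleotide exchange factor, were lower in Lkb1 +/- as well. Tstd1 fell from 87.1 CPM in WT to 7.34 CPM, although it lies on chromosome 1, where most ratios were above 1 (below). Gas6, a ligand of the TAM receptor kinases, and Smpdl3a each had 97 UMIs in WT and 0 in Lkb1 +/-. With 3 UMIs put in place of 0, both were 34.4-fold lower. The matrix protease Mmp14 had 96 and 0, in the same way 34.1-fold lower. In other libraries Gas6 was at 0 CPM in Bud and Cys, whereas Mmp14 was at 114 CPM in Cys and Smpdl3a at 35.1 CPM in Cys. Klf9, a transcription factor that answers to steroid and thyroid hormones, fell from 23 to 0.948 CPM, and Bud and Cys had 35.6 and 42.6 CPM. Scd1, the desaturase that makes monounsaturated fatty acids, was 3.29-fold lower (interval 2.84 to 3.83), at 55.2 CPM against 182 CPM, and its Lkb1 +/- level was the lowest of the 5 libraries.

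Of the genes at the other end, Erdr1 rose from 4.04 CPM (interval 2.31 to 6.56) in WT to 159 CPM (147 to 171) in Lkb1 +/-, a ratio of 39.4 (24.1 to 69.3), with UMIs in 5.36% and 67.7% of cells. Bud and fetal had 251 and 173 CPM of it and Cys 1.01 CPM, so the 5 libraries fell into 3 high and 2 low ones without following the Lkb1 genotype. Slit2, a secreted guidance cue, was at 58 CPM against 9.09 CPM (ratio 6.39, 4.49 to 9.33), and the other 3 libraries reached 5.02 CPM at most. After each cell was thinned to 3000 UMIs, 14% of Lkb1 +/- cells and 0.413% of WT cells had a UMI of Slit2. Igfbp4, which binds insulin-like growth factors, was at 344 CPM against 105 CPM (3.26, 2.92 to 3.64), with 347 CPM in the fetal library and 2.03 CPM in Cys. Aldh1a1, which makes retinoic acid, was at 379 CPM against 99.9 CPM, and 48.5% and 34.3% of cells held a UMI of it.

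**Figure D2:**
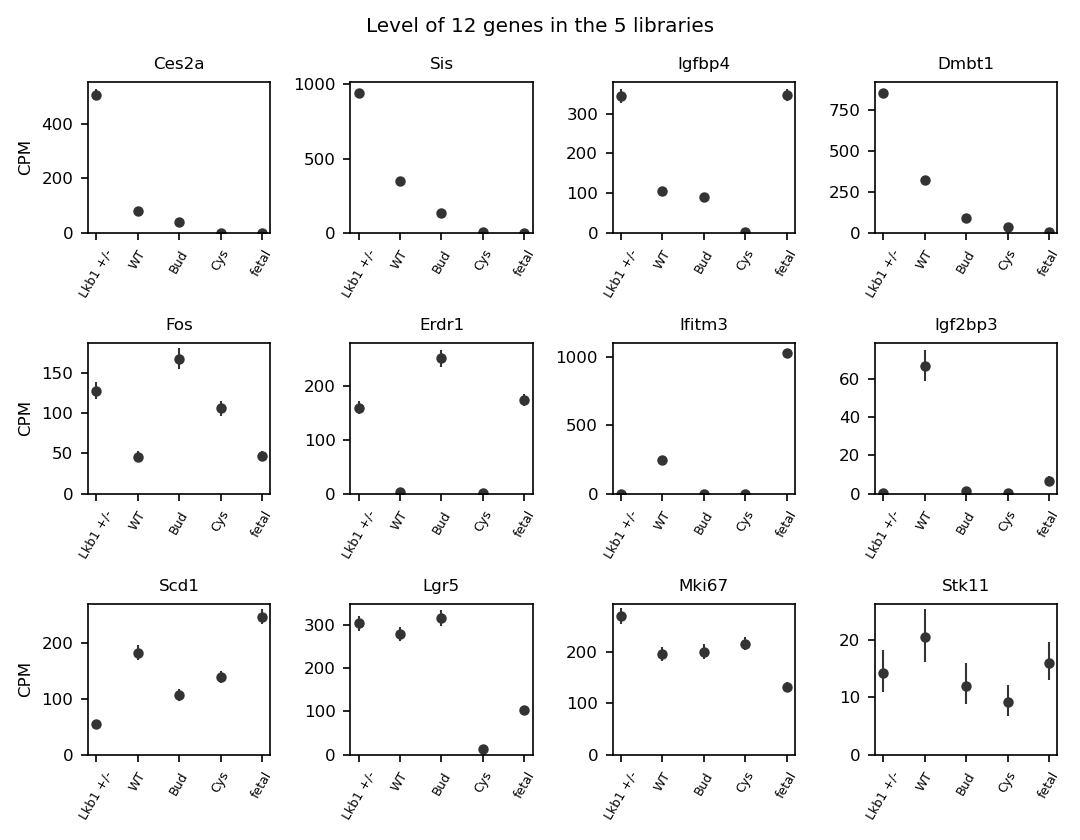
CPM of 12 genes in the Lkb1 +/-, WT, Bud, Cys and fetal libraries, 1 point per library with a 95% Poisson interval as bar (counting error only) and a linear axis from 0. Ces2a, Sis and Dmbt1 are highest in Lkb1 +/-, Ifitm3 is high in WT and fetal, Igf2bp3 in WT alone, and Stk11 is at 9.13 to 20.4 CPM in all 5.

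Of the 21 measured enterocyte genes 10 were higher and 0 were lower, and the list's median log2 ratio was 0.46. Sis, the sucrase-isomaltase of the brush border, was at 941 CPM against 346 CPM (ratio 2.72, 2.56 to 2.90). Alpi, the intestinal alkaline phosphatase, was at 280 against 78 CPM. Krt20, Rbp2, Apob, Mttp, Slc5a1 and Cyp3a11 were among the others that were higher. Among the members not past the fold, Fabp1 had a ratio of 1.28 (1.21 to 1.35) and Fabp2 of 0.886 (0.806 to 0.974). Outside the list, Ces2a, a carboxylesterase of mature epithelium, was at 508 CPM against 78.2 CPM (6.49, 5.76 to 7.33). Ces2a had UMIs in 57% of Lkb1 +/- cells and 26.8% of WT cells, and reached 37.9 CPM at most in the other 3 libraries. Hnf4g, a transcription factor of enterocytes, was at 197 against 98.7 CPM and Cdhr5, of the brush border, at 163 against 64.1 CPM. These 2 and Lgals4 were the members higher among 14 genes of intestinal identity, where 1 was lower and the list median was 0.29.

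Most cells in both libraries held few enterocyte UMIs. The list made up 0.179% of a cell's UMIs at the median in Lkb1 +/- and 0.155% in WT, and 1.99% and 0.795% at the 90th percentile. Cells with at least 1% numbered 42 of 291 in Lkb1 +/- (14.4%, interval 10.6 to 19) and 25 of 280 in WT (8.93%, 5.86 to 12.9). Within cells holding a UMI of the proliferation gene Mki67, Sis was at 439 against 63.7 CPM (ratio 6.89), and without one at 1764 against 794 CPM (2.22). Fabp1 went opposite ways in these ranges, with ratios of 5.24 (4.55 to 6.06) and 0.874 (0.823 to 0.929). When every cell counted equally, 6 enterocyte genes were higher, 1 was lower, and the list median was 0.24.

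**Figure D3:**
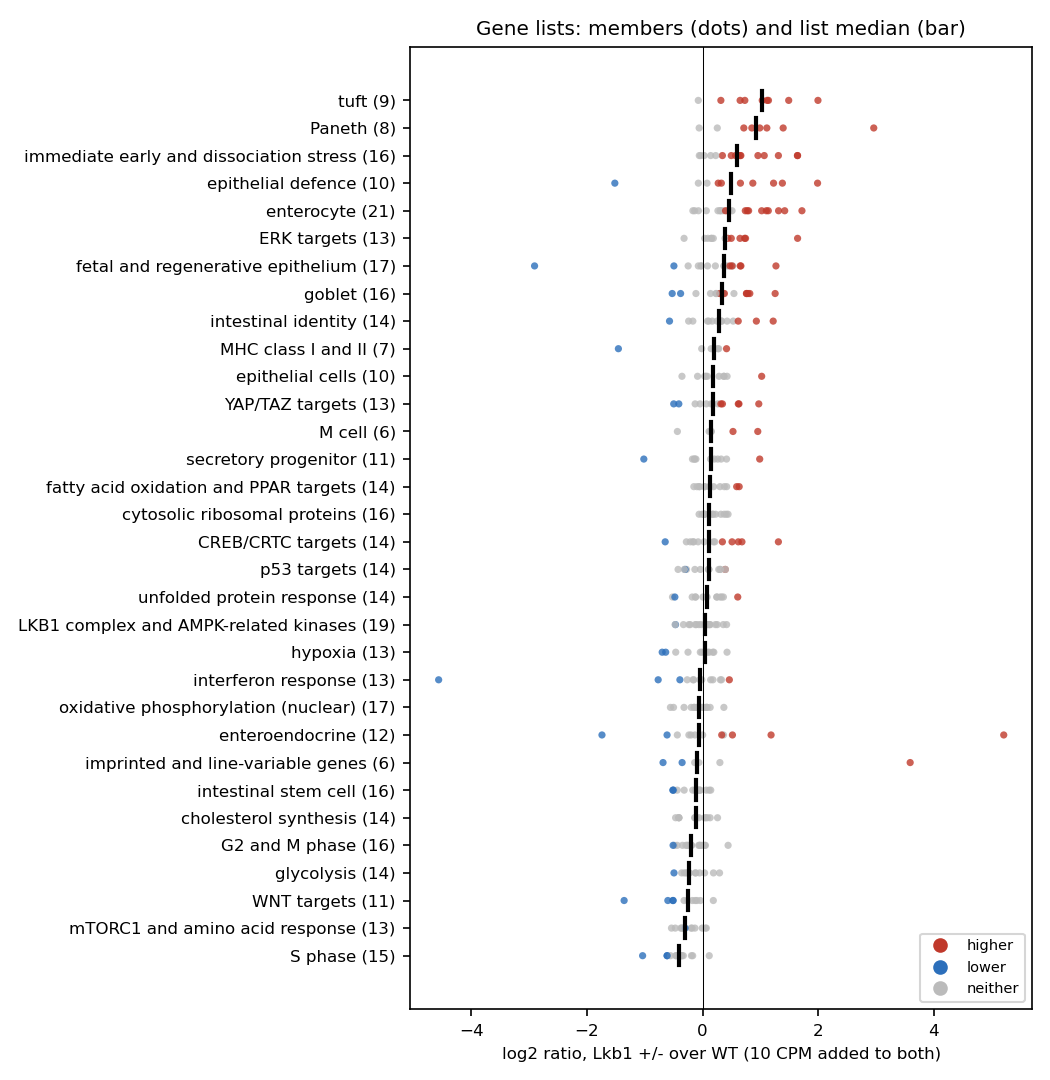
Log2 ratio of Lkb1 +/- over WT (10 CPM added) for each measured member (dots) of the 32 gene lists with at least 5 measured members, with the list median as a black bar and the number of members in brackets. Red and blue dots are genes called higher and lower. Tuft, Paneth, immediate early, defence and enterocyte lists are at the top and S phase is at the bottom at -0.41.

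Of 9 measured tuft genes 8 were higher (median log2 ratio 1.03), among them Trpm5, the taste-pathway channel, at 42.9 against 8.83 CPM and Dclk1 at 9.95 against 2.02 CPM. The 5 richest cells held 90.1% of the tuft list's UMIs in Lkb1 +/- and 91% in WT. Of 8 Paneth genes 6 were higher (0.92), including the protease Mmp7 (74.6 against 22.2 CPM) and the lectin Itln1 (223 against 19.9 CPM). The 5 richest cells held 57.2% of the Paneth list's UMIs in Lkb1 +/- and 39.8% in WT. After thinning, 12 of 265 Lkb1 +/- cells and 7 of 242 WT cells held UMIs of at least 3 Paneth genes. A single cell held 60.8% of the Itln1 UMIs of Lkb1 +/-, and without the richest cell of each library Itln1 was at 87.4 against 15.6 CPM. Lyz1, the Paneth lysozyme, was at 103 and 108 CPM.

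Goblet genes counted 7 higher and 2 lower of 16 (median 0.33), led by the mucin Muc2 at 183 against 70.9 CPM and the trefoil peptide Tff3 at 1110 against 651 CPM. In WT 1 cell held 77.9% of the Muc2 UMIs, and without the richest cells the ratio of Muc2 was 6.89 (5.27 to 9.13). Enteroendocrine genes were split, with 4 higher and 2 lower of 12 (median -0.06). This median was 0.46 with equal weight per cell and 0.55 in cells thinned to 3000 UMIs. Ghrl, the ghrelin gene, had 1517 UMIs in Lkb1 +/- (359 CPM), of which 1 cell held 87.8%, and 0 in WT. The interval of its ratio began at 386. Without the richest cell of each library Ghrl was at 43.8 against 0 CPM, and the interval began at 46.6. The 5 richest cells held 90.1% of the enteroendocrine list's UMIs in Lkb1 +/- and 87.9% in WT. Tph1, the enzyme of serotonin synthesis, was lower at 4.26 against 37.6 CPM. Without the richest cell of each library Tph1 was at 0.474 against 14.9 CPM. Cck was called higher with all cells and was near equal, at 2.84 against 2.78 CPM, without the richest cell of each library. Chgb turned from a ratio of 0.716 to 4.59 in the same way, and Chga from 1.49 to 0.213. Secretory progenitor genes counted 1 higher and 1 lower of 11 (0.14), the Notch ligand Dll1 at 42.9 against 16.7 CPM and Insm1 at 5.69 against 21.7 CPM. M cell genes counted 2 higher of 6 (0.15).

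Epithelial defence genes counted 7 higher and 1 lower of 10 (median 0.49). Dmbt1, a mucin-like scavenger receptor, was at 854 against 322 CPM (ratio 2.65, 2.49 to 2.83), and Pigr, which carries IgA across the epithelium, at 1134 against 717 CPM. Reg3g, a lectin that kills Gram-positive bacteria, was at 108 against 19.7 CPM, whereas its relative Reg1 was at 3.55 against 28.8 CPM. Reads of the near-identical Reg and defensin genes may have been shared between family members.

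Immediate early and dissociation stress genes formed the other clear group, with 11 of 16 higher, 0 lower and a median of 0.59. The transcription factor Fos was at 128 CPM (interval 118 to 139) against 45.7 CPM (39.3 to 52.8), Egr1 at 102 against 25.7 CPM, Junb at 92.9 against 39.1 CPM and Fosb at 22.7 against 0.505 CPM. Jun and Jund, of the same family, were near equal with ratios of 0.957 and 0.976. The list made up 0.104% of a cell's UMIs at the median in Lkb1 +/- and 0.0726% in WT. After thinning, 50.9% of Lkb1 +/- cells and 25.6% of WT cells held UMIs of at least 3 of its genes. Bud, Cys and fetal had Fos at 168, 106 and 47 CPM, so that Bud was above Lkb1 +/- and fetal close to WT. Enzymatic dissociation is known to induce these genes, and its part in the difference was not tested.

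Part of this list is shared with the targets of CREB and its coactivator CRTC, which the salt-inducible kinases restrain. Of 14 measured CREB/CRTC targets 5 were higher and 1 was lower, with a median of 0.11. The median was 0.47 in cells thinned to 3000 UMIs and 0.51 over the members with at least 50 UMIs. It was -0.02 without genes of chromosomes 1, 15 and Y and the end of 4 (regions described below). The higher ones were Fos, Atf3, the phosphodiesterase Pde4d (20.8 against 10.1 CPM), Cited2 (82.9 against 48 CPM) and Areg, an EGF receptor ligand (27.2 against 16.2 CPM). Id1 was lower at 44.3 against 75 CPM. The family of orphan receptors that CREB induces did not pass the fold, with Nr4a1 at 6.87 against 4.80 CPM and Nr4a2 at 4.26 against 7.32 CPM. CREB binds the motif TGACG, and TGACGTCA where 2 copies overlap on opposite strands. Stretches of 4 promoters that hold the motif are shown for genes that were higher, from RefSeq on GRCm38.p6, on the gene's own strand with the motif in capitals.
Fos, chr12:85473804-85473848: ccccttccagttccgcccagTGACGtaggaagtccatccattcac
Fosb, chr7:19310081-19310125: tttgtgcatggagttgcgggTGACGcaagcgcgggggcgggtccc
Junb, chr8:84978830-84978874: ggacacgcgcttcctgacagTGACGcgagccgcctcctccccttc
Areg, chr5:91139521-91139565: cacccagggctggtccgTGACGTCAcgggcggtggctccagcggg
Counted on both strands in the 250 bases before the start, the motif was in 6 of 13 immediate early promoters (46.2%), 9 of 11 CREB/CRTC promoters (81.8%) and 2686 of 8635 promoters of measured genes (31.1%). Nr4a1, which did not pass the fold, had 4 matches in that window, Areg 3, Fos 2, and Fosb and Junb 1 each. Fosb and Junb are members of the immediate early list and not of the CREB/CRTC list. A match describes letters only.

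ERK target genes counted 6 higher and 0 lower of 13 (median 0.39). They included Dusp6, the phosphatase that turns ERK off, at 46.7 against 24.2 CPM, the receptor signalling inhibitor Spry2 at 23.2 against 9.84 CPM and Etv5 at 27 against 13.6 CPM. Egr1 and Ier3, also higher, are shared with the immediate early list. Of the 5 YAP/TAZ targets called higher of 13 (2 lower, median 0.17), Cyr61 was the most abundant at 44.8 against 17.9 CPM. The 2 lower were Amotl2 at 10.7 against 19.2 CPM and Arhgef17 at 2.84 against 7.07 CPM. Fetal and regenerative genes counted 5 higher and 2 lower of 17 (0.37). Anxa3 was at 27.5 against 5.55 CPM and Emp1 at 65.1 against 37.9 CPM, while Ly6a, which encodes Sca-1, was lower at 4.97 against 11.1 CPM. Clu, the marker of revival stem cells, was at 11.6 against 10.3 CPM, beside 3425 CPM in Cys and 4157 CPM in the fetal library. Neither library of this pair approached those levels.

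Stem cell genes differed little, with 0 higher and 2 lower of 16 (median -0.11). Lgr5 was at 304 CPM (287 to 321) against 280 CPM (263 to 297), and 46.4% and 52.1% of thinned cells held a UMI of it. Olfm4 was at 11.1 and 11.9 CPM. WNT targets counted 0 higher and 4 lower of 11 (-0.26): Sp5 at 0.711 against 17.4 CPM, Nkd1, an inhibitor of the pathway, at 5.92 against 14.1 CPM, Znrf3 at 32.7 against 50.7 CPM and Tnfrsf19 at 15.4 against 26.2 CPM. Axin2, the feedback inhibitor most used as a readout of the pathway, was near equal at 163 and 179 CPM.

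Of 15 S phase genes 14 had a ratio under 1, with a median of -0.41, and 3 were lower past the fold. These were Rrm2, a subunit of ribonucleotide reductase, at 68.2 against 150 CPM (ratio 0.454, 0.393 to 0.523), Cdc6 at 27.7 against 47.7 CPM and Mcm7 at 216 against 335 CPM. Pcna, the sliding clamp of replication, was at 585 against 863 CPM. A cell's S phase UMIs were 0.0956% at the median in Lkb1 +/- and 0.223% in WT, but 0.491% and 0.511% at the 90th percentile. Mki67 went the other way at 269 against 195 CPM (1.38, 1.26 to 1.51), while Top2a was at 235 against 334 CPM and Aurkb was lower at 46.7 against 70.7 CPM. The G2 and M phase list counted 0 higher and 1 lower of 16 (-0.19).

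Metabolic and stress lists held few genes past the fold. Glycolysis had 0 higher and 1 lower of 14 (median -0.23), the mTORC1 and amino acid response 0 and 1 of 13 (-0.30), hypoxia 0 and 2 of 13 (0.04), oxidative phosphorylation 0 and 0 of 17 (-0.06) and cholesterol synthesis 0 and 0 of 14 (-0.12). Among amino acid genes, Asns was at 250 against 351 CPM and Shmt2 at 373 against 546 CPM. Fatty acid oxidation had 2 higher of 14 (0.12), among them Acadl of the mitochondrion. The unfolded protein response and p53 targets each had 1 higher and 1 lower of 14 (0.07 and 0.10). Interferon genes counted 1 higher and 3 lower of 13 (-0.04), with Irf7 higher and Ifitm3, Ifit2 and Irf1 lower, and MHC genes 1 and 1 of 7 (0.21). Cytosolic ribosomal proteins counted 0 of 16 past the fold (0.12). Imprinted and line-variable genes counted 1 higher and 2 lower of 6 (-0.10), gastric genes 1 and 1 of 3 (0.26), and epithelial markers 1 and 0 of 10 (0.18).

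The calls were unevenly placed on the chromosomes. Over 8253 genes with at least 100 UMIs, the median ratio was 1.28 on chromosome 1, with 400 of 471 genes above 1, and 0.697 on chromosome 15, with 305 of 344 below 1. At the end of chromosome 4 it was 0.505, with 71 of 71 genes below 1. That stretch runs from Spen, which starts at base 141467890 (GRCm38), to the last measured gene of the chromosome, Noc2l, which ends at base 156247616. Its boundary was set where the mean ratio along the chromosome changed most. On the other 18 chromosomes or parts the medians were 0.953 to 1.02. The 5 measured genes placed on the Y were all higher, with a median of 2.05.

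**Figure D4:**
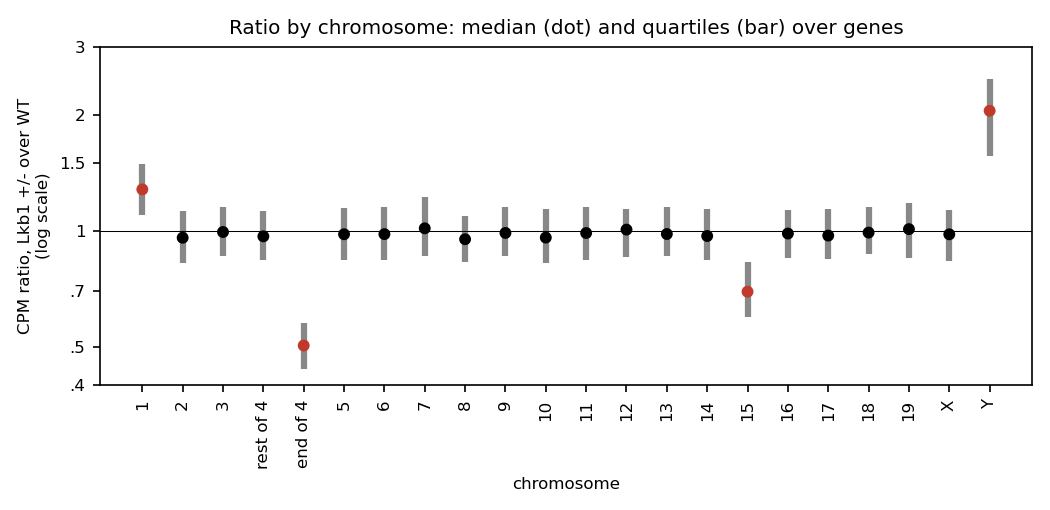
Median (dot) and quartiles (bar) of the CPM ratio of Lkb1 +/- over WT for genes with at least 100 UMIs, by chromosome, on a log axis. Red dots mark chromosome 1 at 1.28, the end of chromosome 4 at 0.505, chromosome 15 at 0.697 and the Y at 2.05, and black dots the 18 others at 0.953 to 1.02.

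Of genes called higher, 160 (17.6%) were on chromosome 1, where 24.1% of measured genes were higher. Of genes called lower, 270 (27.3%) were on chromosome 15 or the end of 4, where 38.8% and 77.5% were lower. Over the 10216 measured genes elsewhere, 734 were higher (7.18%) and 695 lower (6.80%). Several named genes lie in these regions: Alpi, Acadl and Itln1 on chromosome 1, and Ndrg1 (358 against 563 CPM), a stress-induced differentiation gene, and Ly6a on 15. The WNT target Myc and Prkag1, a regulatory subunit of AMPK, also lie on 15 and had ratios of 0.791 and 0.671. Levels of some of these genes, among them Alpi, Ndrg1 and Myc, differed between ranges of Lkb1 +/- cells described below. Fam132a, at the end of 4, fell from 20.2 to 0.711 CPM.

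Cell by cell, the chromosome 1 pattern was not shared by all Lkb1 +/- cells. The share of a cell's UMIs from chromosome 1, counted over genes under 500 CPM, fell into 2 ranges in Lkb1 +/-. Above a dividing value of 6.89%, set by 2-means on the data, were 161 of 291 Lkb1 +/- cells (55.3%, interval 49.4 to 61.1) with a median share of 8.08%. The 130 below had a median of 5.66%, which makes the upper range 1.43 times the lower, and 9 cells lay near the dividing value. In WT 4 of 280 cells were above it, and the median share was 5.49%.

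Chromosome 15 split WT instead. Above a dividing value of 4.88%, 219 of 280 WT cells (78.2%, 72.9 to 82.9) had a median share of 5.72%, and the 61 cells below it had 4.05%, so the upper range was 1.41 times the lower, and 8 cells lay near the dividing value. Of Lkb1 +/- cells 4 of 291 were above, and the median was 3.97%. Bud had 238 of 275 cells above, Cys 8 of 337 and fetal 21 of 369, so that WT and Bud were the libraries with most cells in the upper range.

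The end of chromosome 4 gave 1 range per library. Its share was 0.457% at the median in Lkb1 +/- (10th to 90th percentile 0.331 to 0.581) and 0.884% in WT (0.650 to 1.06), and 284 of 291 Lkb1 +/- cells (97.6%) were below the 10th percentile of WT cells. Lkb1 +/- cells of high and low chromosome 1 share had the same median, 0.457%. Bud and Cys were near WT at 0.849% and 0.847%, and fetal was at 0.502%. The fetal library was low over the whole chromosome, with median ratios to WT of 0.495 on the rest of 4 and 0.497 at its end. Those of Lkb1 +/- were 0.969 and 0.505. Chromosome 12 served as a contrast for this pair only, with shares of 3.62% and 3.57% in Lkb1 +/- and WT. Bud and Cys stood higher there at 4.66% and 5.27%, and fetal was at 4.01%. The Y genes other than Erdr1 summed to 334 CPM in Lkb1 +/- and 173 CPM in WT, and after thinning 39.2% and 56.2% of cells had none. DNA copy number was not measured here.

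**Figure D5:**
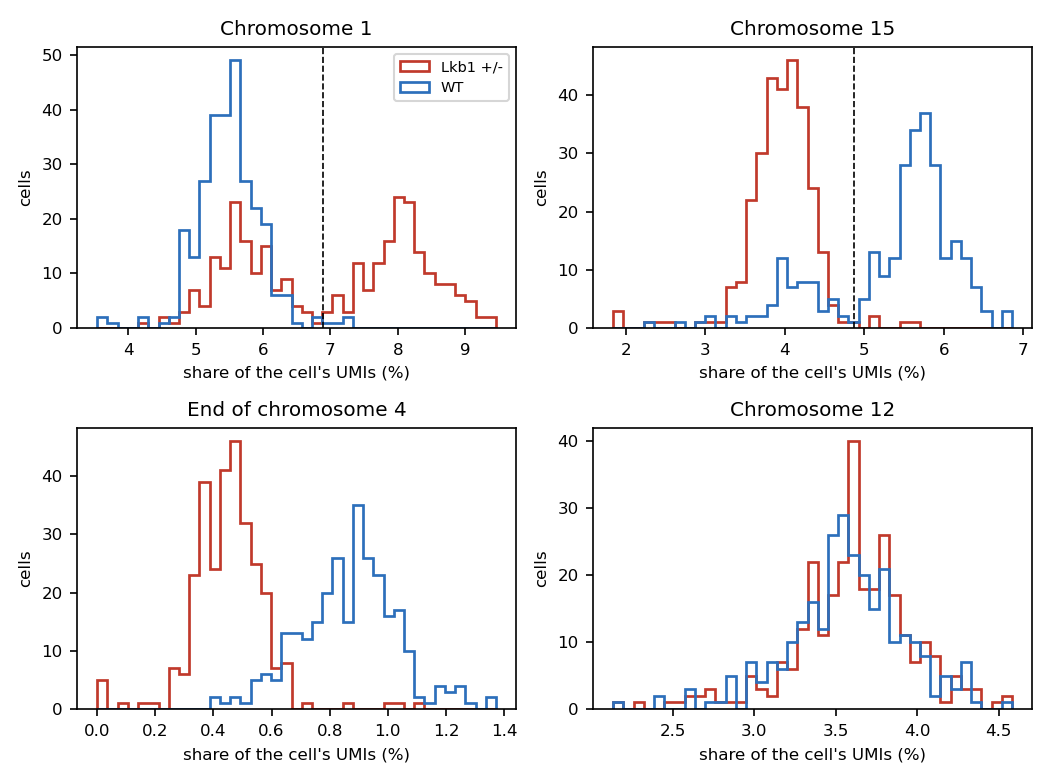
Number of cells by the share of a cell's UMIs from chromosome 1, chromosome 15, the end of chromosome 4 and chromosome 12 (percent, genes under 500 CPM), for 291 Lkb1 +/- cells (red) and 280 WT cells (blue); the outermost bins take in cells beyond the axis, and dashed lines mark the dividing values of 6.89% and 4.88%. Lkb1 +/- cells form 2 ranges on chromosome 1, WT cells 2 ranges on chromosome 15, the libraries differ as wholes at the end of 4, and they overlap on 12.

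The gene groups differed between the 2 ranges of Lkb1 +/- cells, which are ranges of a score read from expression and not cell types. Median UMIs per cell were 12689 in the low and 13585 in the high range. Among genes off chromosome 1, 17 of 19 enterocyte genes were higher than WT in the 130 cells of low chromosome 1 share (median log2 ratio 1.28). In the 161 cells of high share 0 were higher and 7 were lower (-0.15). Fabp1 was at 1518 CPM in the low range, 206 CPM in the high range and 616 CPM in WT, and Sis at 1592, 425 and 346 CPM. Cells with at least 1% enterocyte UMIs were 29 of 130 (22.3%, interval 15.5 to 30.4) in the low range and 13 of 161 (8.07%, 4.37 to 13.4) in the high range. In WT, cells with at least 1% enterocyte UMIs had a chromosome 1 share of 5.68% at the median and the others 5.46%. In Lkb1 +/- the same groups had 6.33% and 7.48%.

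Dmbt1 was highest in the opposite range, at 1189 CPM in cells of high share, 433 CPM in those of low share and 322 CPM in WT. Goblet genes counted 10 higher and 0 lower of 16 in the low range and 4 higher and 3 lower in the high range. Over each library as a whole, a few cells held much of this list's UMIs (above). S phase genes counted 10 lower of 13 in the low range and 2 lower in the high range, with 0 higher in both. Hypoxia genes, with a median of 0.04 over all cells, went opposite ways. They counted 3 higher and 0 lower of 13 in the low range (0.17) and 0 higher and 4 lower in the high range (-0.32). Medians of glycolysis genes were -0.07 and -0.34. Immediate early genes were higher in both ranges, 10 and 8 of 14, with medians of 0.69 and 0.58. Tuft genes were as well, 6 and 7 of 8, but they rested on few cells. After thinning, 6 of 265 Lkb1 +/- cells and 1 of 242 WT cells held UMIs of at least 3 tuft genes. Erdr1 (150 and 166 CPM), Slit2 (50.8 and 63.8 CPM), Scd1 (58.3 and 52.7 CPM) and Ifitm3 (1.07 and 0.425 CPM) were alike in the low and the high range. Of the genes named above by region, Alpi on chromosome 1 was at 380 CPM in the low and 200 CPM in the high range. Acadl (233 and 270 CPM) and Itln1 (42.3 and 366 CPM), also on 1, went the other way. On chromosome 15, Ndrg1 was at 503 and 243 CPM, beside 563 CPM in WT. Myc was at 108 and 185 CPM, beside 191 CPM in WT. Prkag1 (37 and 40 CPM) and Ly6a (4.28 and 5.53 CPM) were close in the 2 ranges. The 2 ranges had near-equal chromosome 15 shares. Over all genes off chromosome 1, 838 of 10797 were higher and 1054 lower in the low range, and 655 and 946 in the high range.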

How the data were processed

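Per library, the authors deposited raw UMI counts, raw read counts and estimated counts of transcripts (UMI counts corrected for identifier collisions), each with genes as rows and wells as columns. The deposited UMI counts were used for every value, the deposited read counts for reads per UMI, and the deposited estimated counts, summed and rounded to whole numbers, as an alternative. Seurat 4.1.0, STAR 2.6.1 and featureCounts 1.5.2 are named in the submitters' processing notes, as is the build GRCm38. Values of paralogs and overlapping genes are uncertain, because the treatment of strand and of reads matching several genes was not given in the sources used here. The tables held 0 mitochondrial genes.

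Spike-ins were dropped and wells filtered as stated. No doublet caller was run, since wells received sorted single cells. Plate positions are named alike in all libraries: 213 positions were kept in both, and 0 wells held identical counts. UMIs were summed over kept cells and scaled to CPM. Ratios carry exact conditional binomial intervals, levels exact Poisson intervals and shares exact (Clopper-Pearson) intervals, all at 95% and for counting error only. The ratio, its interval and the call were tested on simulated library sums with counting error only. The simulation held no cells, so it did not cover UMIs gathered in a few cells or the other steps.

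Members, 36 gene lists and alternatives were chosen with earlier results of these data known, and the chromosome regions, their dividing values and the gene filter behind the shares (under 500 CPM, richest cell at most 20% of the gene's UMIs, 7907 genes) after seeing these values. A first division without the richest-cell filter was set by 1 cell and replaced. A cell near a dividing value is within 10% of the gap between the 2 means. Named genes were the 15 genes at each end of the log2 ratio, of those detected in 10% or more of cells of the higher library, leaving out ribosomal protein, Gm-number and Rik genes, up to 4 members per list that lay farthest from 0 on the log2 scale and reached 20 CPM, Stk11 and 4 related kinase genes, and canonical markers. Other list members were named after their values were seen, and some genes are not reported here. Positions are from GENCODE M21, on GRCm38. Software was Python 3.11.15, numpy 2.4.6, pandas 2.3.3, scipy 1.17.1 and matplotlib 3.10.9.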

Additional observations from a re-analysis of the deposited data

How the results depend on the processing

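No paired analysis was possible because each genotype was 1 library. The counts of 910 genes higher and 989 lower were within 1.5-fold of these values under 13 alternatives each. They came to 432 and 464 at a fold of at least 2, and to 554 and 571 when cells were thinned to 3000 UMIs, which leaves fewer UMIs. Scaling by the median of ratios moved all log2 ratios by about 0.04. For each list a band was drawn from the median of its members' lower limits to the median of their upper limits. It has the width of a typical single gene and is not an interval for the list median. Median log2 ratios of lists stayed within these bands in 420 of 448 comparisons. The sign changed in 15 of the 448, in 8 lists. Of these the enteroendocrine median with equal weight per cell and in thinned cells lay outside its band. With 1 CPM added in place of 10, which weighs low genes more, they were 0.67 for enterocyte, 1.76 for Paneth, 2.16 for tuft, 0.52 for M cell and 1.39 for epithelial defence genes. With equal weight per cell they were 0.24 for enterocyte, 1.56 for Paneth, 0.46 for enteroendocrine, 1.21 for tuft and -0.29 for glycolysis genes. Thinned cells gave 0.47 for CREB/CRTC, 1.47 for Paneth, 0.55 for enteroendocrine, 1.51 for tuft, -0.44 for interferon and 0.60 for epithelial defence genes. At least 50 UMIs per gene gave 0.51 for CREB/CRTC and 0.87 for epithelial defence genes, at least 3000 UMIs per well 0.67 for epithelial defence, and scaling by the median of ratios 0.16 for ribosomal proteins. Other values came from alternatives chosen after seeing the data. Without genes of chromosomes 1, 15 and Y and the end of 4, epithelial defence was at 0.33. With only Lkb1 +/- cells of low chromosome 1 share, medians were -0.69 for S phase, 1.28 for enterocyte, 0.43 for Paneth, 0.61 for goblet, -0.0675 for glycolysis, 0.30 for epithelial defence and 0.0796 for epithelial markers. Among named genes, Strada turned to 0.0038 on the log2 scale in thinned cells, and Cck to -0.30 in Lkb1 +/- cells of low chromosome 1 share and to -0.10 without the 5 cells of each library richest in secretory genes. The cause of these changes was not tested. Without the richest cell of each library, 80 of 81 named genes past the fold kept their call, and 5 of the 71 others came to pass it (Chga, Chgb, Ankrd37, Nuak2 and Prkag1).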
